A study of Homo sapiens with 12 samples.

Results

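Amino acid transporters carry nutrients across the plasma membrane, and 9 of their genes are described here across the 4 groups of an RNA sequencing experiment in PEO1 cells, an established human ovarian cancer line. With the first transcript of each entry in parentheses, the 9 are SLC7A5 (ENST00000261622), SLC3A2 (ENST00000338663), SLC7A11 (ENST00000280612), SLC7A1 (ENST00000380752), SLC7A2 (ENST00000004531), SLC1A5 (ENST00000412532), SLC1A4 (ENST00000234256), SLC38A1 (ENST00000398637) and SLC38A2 (ENST00000256689). They were taken by symbol. Each matched 1 of the 57773 entries of the deposited count table, and all 9 passed the filter on low counts that left 15715 genes to test.

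The cells carried either the empty pLKO.1 vector (control vector) or shp53, a short hairpin RNA that targets p53 (called knockdown below), and were grown in serum with puromycin. Cells of each line were collected untreated at 0 h, or after 48 h with 10 µM fulvestrant, an antagonist that leads to degradation of the estrogen receptor. This gives 4 groups of 3 libraries. The treatment protocol also names estradiol (E2) at 100 pM, and does not say whether the untreated cells received it. Drug, time in culture and estradiol therefore cannot be told apart in a comparison of treated with untreated cells. The labels give a single knockdown line and do not say how many hairpins or clones it holds. Nor do they tell whether the 3 libraries of each group are separate cultures. P-values therefore reflect only how far these samples spread, and that spread may be technical. The study's title concerns estrogen receptor alpha activity and resistance to endocrine therapy.

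The transporters fall into 5 kinds by what they carry. SLC7A5 encodes LAT1, an exchanger of leucine and other large neutral amino acids, which reaches the membrane bound to the heavy chain CD98, the product of SLC3A2. SLC7A11 encodes xCT, which also pairs with CD98 and takes up cystine in exchange for glutamate, feeding glutathione synthesis. SLC7A1 and SLC7A2 encode the cationic transporters CAT1 and CAT2, which import arginine, lysine and ornithine. SLC1A5 encodes ASCT2, a glutamine exchanger, and SLC1A4 encodes ASCT1, an exchanger of alanine, serine and cysteine. SLC38A1 and SLC38A2 encode SNAT1 and SNAT2, sodium-coupled carriers that load the cell with glutamine and other small neutral amino acids. Several of these genes are known targets of ATF4, a transcription factor made when amino acids run short, which binds with C/EBP partners at the amino acid response element.

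Promoter sequences were searched for that element. RefSeq promoter windows (GRCh38.p14, from 250 bases before to 50 bases after a start site) were used for 7 of the 9 genes, 13 windows in all. SLC7A11 had no entry and SLC7A2 was not analysed here, so the counts that follow are over those 7 genes. The amino acid response element was searched on both strands as TGATGNAAN. It occurred in 5 of the 13 windows (38.5%), 1 each for SLC3A2, SLC1A5, SLC1A4, SLC7A1 and SLC38A1, against 1268 of all 35116 windows (3.61%). The other windows of SLC3A2, SLC1A5, SLC1A4 and SLC38A1 held no match. Several of the 9 genes are known as ATF4 targets, so this share is a description and no support for that link. The windows of SLC7A5 and SLC38A2 held no such letters, which says nothing of sites elsewhere. The palindromic estrogen response element (half-sites GGTCA and TGACC with any 3 bases between) occurred in 0 of the 13 windows and in 20 of all windows (0.057%). The 5 matched stretches are shown because they share this motif, which stands in capitals, with each sequence written 5′ to 3′ on the strand of its gene:
SLC3A2 (chr11:62881729-62881748, plus strand, bases 31 to 50 after the start): ggactcCTTACATCAgctcc
SLC1A5 (chr19:46784790-46784964, minus strand, 150 bases before to 25 after the start): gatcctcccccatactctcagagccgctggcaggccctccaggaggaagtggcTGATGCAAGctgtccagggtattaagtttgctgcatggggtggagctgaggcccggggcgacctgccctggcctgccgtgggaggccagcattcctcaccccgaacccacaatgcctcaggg
SLC1A4 (chr2:64989249-64989423, plus strand, same span): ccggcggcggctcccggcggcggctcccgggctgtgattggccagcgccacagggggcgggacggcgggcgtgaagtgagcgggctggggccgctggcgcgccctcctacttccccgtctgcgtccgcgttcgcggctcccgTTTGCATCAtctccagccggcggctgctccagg
SLC7A1 (chr13:29595664-29595838, minus strand, same span): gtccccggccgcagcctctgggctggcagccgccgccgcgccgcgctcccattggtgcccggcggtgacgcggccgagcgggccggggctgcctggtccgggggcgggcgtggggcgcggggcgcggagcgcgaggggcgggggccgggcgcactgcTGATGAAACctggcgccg
SLC38A1 (chr12:46266492-46266666, minus strand, same span): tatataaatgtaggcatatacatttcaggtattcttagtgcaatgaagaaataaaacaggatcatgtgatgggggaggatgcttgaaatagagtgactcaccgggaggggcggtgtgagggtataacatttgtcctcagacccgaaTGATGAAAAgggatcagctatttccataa

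In SLC3A2 and SLC1A4 the motif lay on the other strand, so its reverse complement is what appears. These are descriptions of letters, and the data hold no binding measurement. The 5 genes did not behave alike, as the values below show: with fulvestrant SLC3A2 fell, SLC38A1 rose, and SLC1A5 passed the test in neither line.

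The libraries held 21581887 to 28481541 counts. Levels are given in CPM, and ± marks the SD of 3 libraries around their mean. CPM is the count as a share of the library, per 1000000 counts, after scaling by TMM, a correction for library composition. All 13 epithelial and ovarian carcinoma markers checked passed the filter on low counts, MUC1 with only 2 to 15 counts per library. Of 9 fibroblast markers 3 were tested, COL3A1 and LUM had 0 counts in all 12 libraries, and the summed level of the list was 229.9 to 256 CPM untreated and 91.6 to 119 CPM with fulvestrant. Most of that sum was THY1, whose part in the transporter results was not tested. The leukocyte list summed to between 58.1 and 80.2 CPM, mostly CD68, and PTPRC, which defines leukocytes, had at most 5 counts. The endothelial and mesothelial list summed to between 85.3 and 245 CPM, mostly MSLN. Libraries also differed in how their counts depended on the GC content of transcripts. This slope lay between -0.083 and 0.250 (log2 CPM per 10 GC points) in 10 libraries, but was -0.337 in library 3 of treated control-vector cells and -0.373 in library 2 of treated knockdown cells. Both stand apart in the values below, so each contrast is also given after a correction that removes each library's GC trend. The transcripts of the 9 genes range from 35.4% GC (SLC7A11) to 61.3% (SLC1A5). The correction would also remove a true response that ran with GC content.

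**Figure D1:**
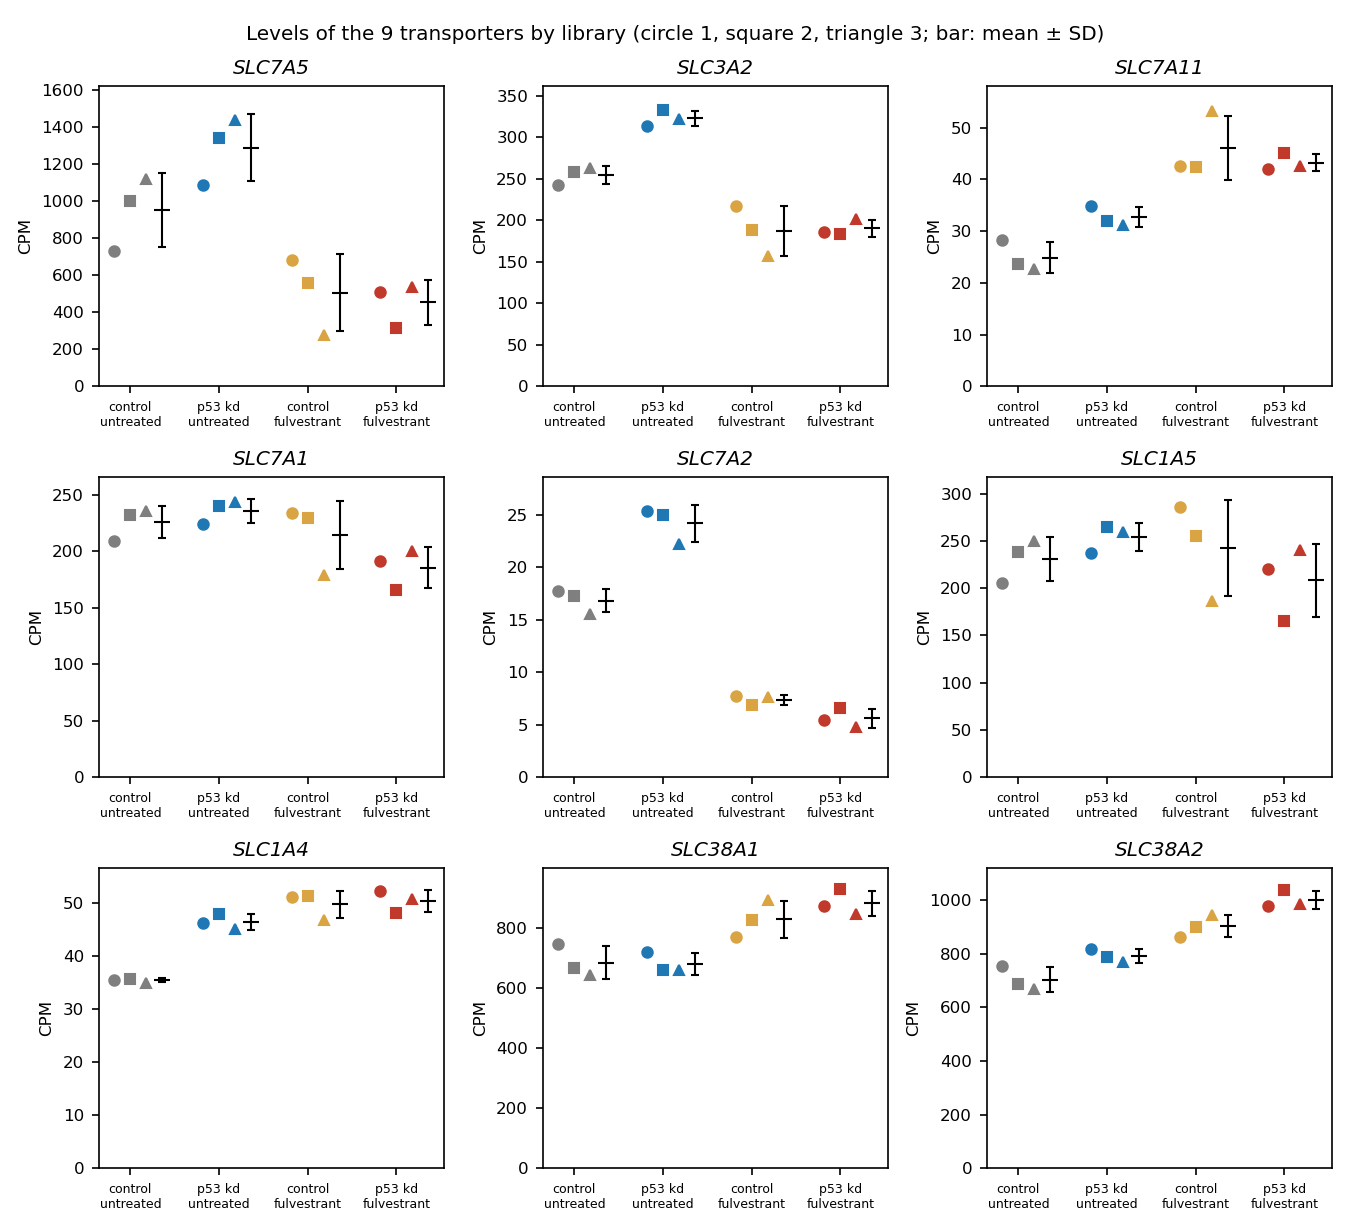
Level of each transporter in CPM (vertical axis, from 0) in every library of the 4 groups, with the mean ± SD of 3 libraries beside the points. SLC7A2 stands at 15.6 to 25.4 CPM untreated and at 4.84 to 7.70 CPM with fulvestrant, while SLC7A5 spreads widely within each treated group.

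The first comparison sets untreated knockdown cells against untreated control-vector cells. Of the 9 transporters 2 rose, SLC1A4 and SLC7A2, and 0 fell by edgeR at an adjusted p under 0.05, where 1.02% of all tested genes rose and 0.566% fell. In 5 of the 9 (SLC3A2, SLC7A11, SLC1A4, SLC7A2 and SLC38A2) every knockdown library lay above every control-vector library, which held for 8.69% of all genes. The median log2 fold change of the 9 was 0.34, beside -0.01 over all genes. After the GC correction 6 rose, adding SLC7A5, SLC3A2, SLC7A11 and SLC38A2 to the other two, and 0 fell, where 3.75% of all genes rose and 2.81% fell. With fulvestrant, 0 of the 9 passed the test between the lines, against 7.02% of all genes called by edgeR. An unadjusted p under 0.05 occurred for 2 of them (SLC7A2 and SLC38A2) and for 21.3% of all genes. The median of the 9 was then -0.09, beside 0.00065 over all genes. After GC correction 1 of the 9 fell between treated lines (SLC7A2) and 0 rose, where 9.77% of all genes rose and 10.8% fell, and their median was 0.02.

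Fulvestrant against untreated gives the response within each line. In control-vector cells 4 transporters rose (SLC7A11, SLC1A4, SLC38A1 and SLC38A2) and 2 fell (SLC3A2 and SLC7A2), where 13.4% of all genes rose and 14.3% fell. In knockdown cells 3 rose (SLC7A11, SLC38A1 and SLC38A2) and 4 fell (SLC7A5, SLC3A2, SLC7A1 and SLC7A2), where 21.3% of all genes rose and 19.6% fell. After GC correction 4 rose and 3 fell in control-vector cells, with SLC7A5 added to the fallen, where 21.2% of all genes rose and 22.0% fell. In knockdown cells 4 rose and 4 fell after it, with SLC1A4 added to the risen, where 27.4% of all genes rose and 26.9% fell. Both the cystine carrier and the sodium-coupled glutamine carriers were thus called higher, and the CD98 heavy chain and CAT2 lower, in each line. The 4 comparisons share groups with one another, so their values are given side by side and not as independent results. Where treated and untreated groups are said below not to overlap, that is a description. The share of all genes with such separation is not given here. Because these are bulk samples, fewer cells of a kind and less RNA per cell cannot be told apart.

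**Figure D2:**
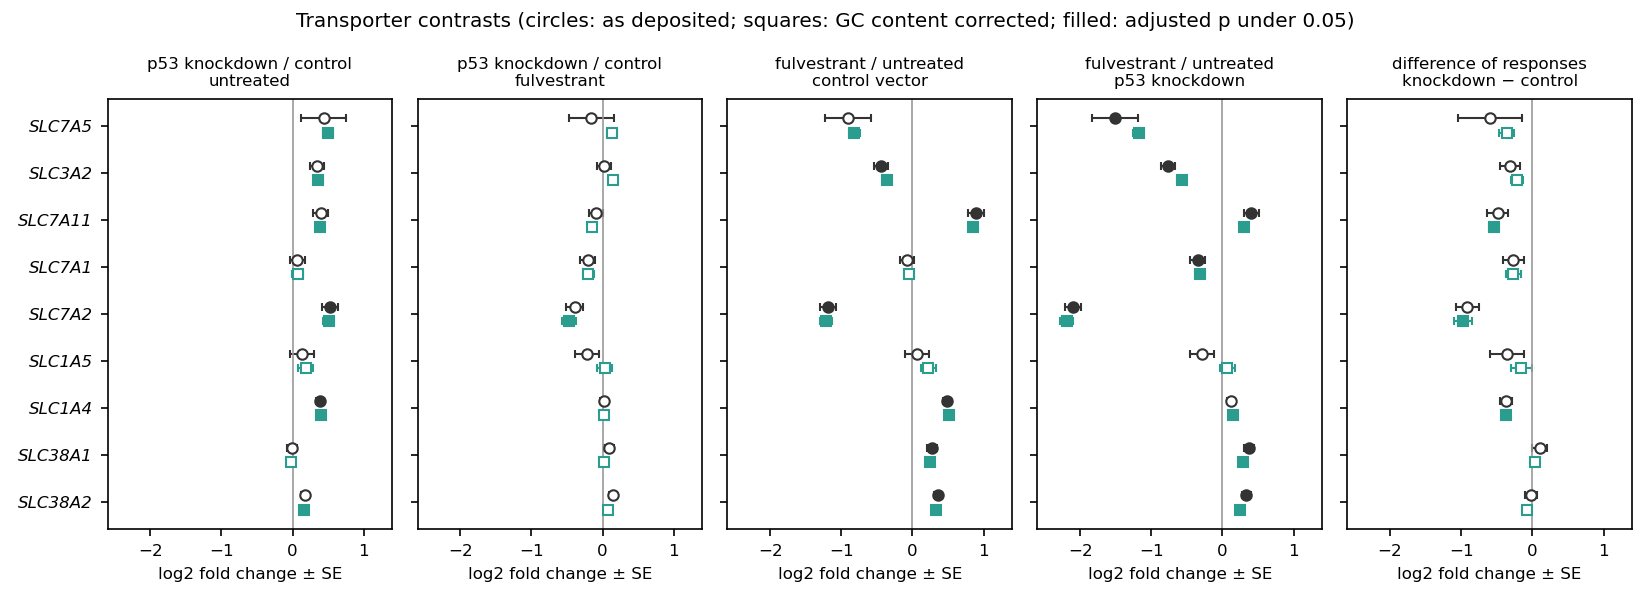
Log2 fold change ± SE of each transporter in the 5 contrasts, from the counts as deposited (circles) and after GC correction (squares), with filled symbols where the edgeR adjusted p is under 0.05. The fulvestrant contrasts hold the largest values, with SLC7A2 at -1.19 in control-vector and -2.10 in knockdown cells.

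The LAT1 and CD98 pair was lower with fulvestrant. In libraries 1, 2 and 3 SLC7A5 stood at 730.1, 1004 and 1121 CPM in control-vector cells untreated and at 1087, 1341 and 1439 CPM in untreated knockdown cells. With fulvestrant it stood at 684, 558 and 276 CPM in control-vector cells and at 509, 315 and 536 CPM in knockdown cells. Every treated library lay below every untreated one of its line, but the libraries of each group were far apart and the untreated lines overlapped. The 2 lowest values, 276 and 315 CPM, are those of the libraries with the steep GC slope, and the SLC7A5 transcript has 61.1% GC. In knockdown cells the fall was 1.51 on the log2 scale (log2 fold change -1.51, SE 0.33, edgeR adjusted p = 0.00445). In control-vector cells the log2 fold change was -0.91 (SE 0.32) and missed the threshold (edgeR adjusted p = 0.0611). It passed by DESeq2 (adjusted p = 0.00541). Of the 6 edgeR fits that left out 1 library, 1 passed, that without library 1 of treated control-vector cells (-1.19, adjusted p = 0.0292). Over these 6 fits the value ran from -1.19 to -0.65, with edgeR adjusted p from 0.0292 to 0.169. The control-vector response also passed without the 2 steep treated libraries and the first library of each untreated group (-0.81, edgeR adjusted p = 0.00142). That choice of libraries, here and below, was made after seeing the data. GC correction narrowed the groups to 790.3, 855 and 871 CPM untreated against 505, 506 and 417 CPM treated in control-vector cells, which gave -0.82 on the log2 scale (edgeR adjusted p = 5.83e-06). In knockdown cells the corrected values were 1129, 1214 and 1205 CPM untreated and 542, 490.0 and 538 CPM treated, or -1.18 on the log2 scale (edgeR adjusted p = 1.85e-07). Between untreated lines SLC7A5 differed by 0.44 on the log2 scale (SE 0.32, edgeR adjusted p = 0.853). After correction that contrast was 0.50 (edgeR adjusted p = 0.00201), with no overlap between the lines. Between treated lines it was -0.16 (edgeR adjusted p = 0.795), and 0.14 after correction (edgeR adjusted p = 0.237).

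SLC3A2, the heavy chain that LAT1 and xCT share, varied less between libraries. It stood at 243, 258 and 263 CPM in the untreated control-vector libraries and at 314, 332 and 322 CPM in untreated knockdown cells. With fulvestrant the values were 217, 188 and 156 CPM in control-vector cells and 186, 183 and 202 CPM in knockdown cells. The 4 groups thus formed an order in which untreated knockdown cells were highest, untreated control-vector cells next, and the treated lines overlapped below both. The log2 fold change with fulvestrant was -0.45 in control-vector cells (SE 0.10, edgeR adjusted p = 0.00622) and -0.76 in knockdown cells (SE 0.10, edgeR adjusted p = 0.000126). Between untreated lines it was 0.34 (SE 0.10), which did not pass (edgeR adjusted p = 0.164) until GC was corrected (0.36, edgeR adjusted p = 0.00392). It also passed in a fit of only the 6 untreated libraries (edgeR adjusted p = 0.0361). Per kilobase of transcript, SLC7A5 stood at 1.47 to 2.19 times the level of SLC3A2 in the 6 untreated libraries and at 0.845 to 1.55 times in the 6 treated ones. After GC correction these ranges no longer met, at 1.56 to 2.00 untreated and 1.04 to 1.39 treated.

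SLC7A11, the cystine carrier, rose with fulvestrant in both lines. Its levels were 28.2, 23.6 and 22.7 CPM in untreated control-vector cells, and 42.6, 42.4 and 53.2 CPM with fulvestrant. In knockdown cells they were 34.9, 32.0 and 31.2 CPM untreated and 42.1, 45.1 and 42.6 CPM treated. The untreated lines did not overlap, with knockdown cells higher, whereas the treated lines did. After GC correction the treated lines no longer overlapped, with knockdown cells lower, and their log2 fold change of -0.15 did not pass (edgeR adjusted p = 0.0558). The rise was 0.89 on the log2 scale in control-vector cells (SE 0.11, edgeR adjusted p = 0.000166) and 0.40 in knockdown cells (SE 0.11, edgeR adjusted p = 0.0107). The knockdown call was lost without library 2 of treated knockdown cells (0.35, edgeR adjusted p = 0.0657), and was 0.31 after GC correction (edgeR adjusted p = 0.000281). Between untreated lines the log2 fold change was 0.40 (SE 0.11, edgeR adjusted p = 0.126), or 0.39 after correction (edgeR adjusted p = 0.000659). With an SLC7A11 transcript of 35.4% GC, the highest treated value, 53.2 CPM, came from the control-vector library with the steep slope and was 48.3 CPM after correction.

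Of the 2 cationic amino acid carriers, SLC7A2 changed most among the 9 genes with fulvestrant. It stood at 17.7, 17.2 and 15.6 CPM in control-vector cells untreated and at 25.4, 25.0 and 22.2 CPM in untreated knockdown cells. Treated levels were 7.70, 6.86 and 7.60 CPM in control-vector cells and 5.42, 6.59 and 4.84 CPM in knockdown cells. No groups overlapped: knockdown cells were the higher line untreated and the lower line with fulvestrant. That order, without overlap in either condition, occurred in 30 of the 15715 tested genes (0.191%), and in no other transporter of the 9. It is the order that SLC7A2 itself shows, and the reverse order was not counted. The share is therefore a description and does not measure how unusual the gene is. SLC7A2 fell by 1.19 on the log2 scale in control-vector cells (SE 0.11, edgeR adjusted p = 3.74e-05) and by 2.10 in knockdown cells (SE 0.12, edgeR adjusted p = 4.64e-07), to 0.439 and 0.233 of the untreated level. Both falls passed the test in every alternative run. The 0.52 rise between untreated lines was close to the threshold (SE 0.11, edgeR adjusted p = 0.0421). It lost its call in each of the 6 fits that left out 1 untreated library (edgeR adjusted p from 0.0689 to 0.183). The call was also lost with RLE size factors and with library totals in place of TMM (edgeR adjusted p = 0.0537 and 0.0633), and it held after GC correction (0.51, edgeR adjusted p = 0.00197). Between treated lines the log2 fold change of -0.39 did not pass (SE 0.12, edgeR adjusted p = 0.0703). It passed after GC correction (-0.47, edgeR adjusted p = 0.00397) and without library 2 of treated knockdown cells (-0.56, edgeR adjusted p = 0.0208). These levels rest on 103 to 676 counts per library, the fewest among the 9 genes.

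SLC7A1, the other cationic carrier, was called with all 12 libraries only in the response of knockdown cells. It stood at 209, 232 and 235 CPM in control-vector cells untreated and at 224, 240.2 and 244 CPM in untreated knockdown cells. With fulvestrant it stood at 234, 229 and 179 CPM in control-vector cells and at 191, 165 and 199.96 CPM in knockdown cells. Of the 4 comparisons, only that of treated with untreated knockdown cells had groups that did not overlap. SLC7A1 fell there by 0.35 on the log2 scale (SE 0.10, edgeR adjusted p = 0.0208), and by 0.32 after GC correction (edgeR adjusted p = 0.00324). The call was lost without library 2 or library 3 of untreated knockdown cells (edgeR adjusted p = 0.0613 and 0.0655). In control-vector cells its log2 fold change was -0.08 (SE 0.10, edgeR adjusted p = 0.653). Between treated lines it was -0.21 (SE 0.10, edgeR adjusted p = 0.288), or -0.20 after GC correction (edgeR adjusted p = 0.0794). That contrast passed without library 3 of treated control-vector cells (-0.29, edgeR adjusted p = 0.0405). It also passed without the 2 steep treated libraries and the first library of each untreated group (-0.25, edgeR adjusted p = 0.00374). On the per-length scale, SLC7A1 stood at 30.7 ± 1.93 CPM per kilobase in untreated control-vector cells and SLC7A2 at 2.20 ± 0.146.

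SLC1A4, the alanine, serine and cysteine exchanger, varied little between libraries and was lowest in untreated control-vector cells. It stood there at 35.6, 35.7 and 35.0 CPM, and at 46.2, 47.9 and 45.0 CPM in untreated knockdown cells. With fulvestrant it stood at 51.1, 51.3 and 46.7 CPM in control-vector cells and at 52.3, 48.2 and 50.8 CPM in knockdown cells. The untreated lines were separate and the treated lines overlapped. SLC1A4 rose by 0.39 with knockdown in untreated cells (SE 0.06, edgeR adjusted p = 0.00546). The call was lost with a replicate block within treatment (0.39, edgeR adjusted p = 0.0645). It rose by 0.49 with fulvestrant in control-vector cells (SE 0.06, edgeR adjusted p = 0.000132). In knockdown cells the log2 fold change with fulvestrant was 0.12 (SE 0.06, edgeR adjusted p = 0.111), or 0.15 after GC correction (edgeR adjusted p = 0.00277). Between treated lines it was 0.02 (SE 0.06, edgeR adjusted p = 0.852).

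SLC1A5, the glutamine exchanger, passed the test in none of the 4 comparisons, before or after GC correction. Its levels were 205, 238 and 250.3 CPM in untreated control-vector cells and 237, 265 and 259.5 CPM in untreated knockdown cells. Treated levels were 285, 255 and 186 CPM in control-vector cells and 220.0, 166 and 239.9 CPM in knockdown cells. The groups of each comparison overlapped, and the lowest value of each treated group, 186 and 166 CPM, came from a library with the steep GC slope. Its transcript, at 61.3% GC, is the most GC-rich of the 9. The log2 fold change with fulvestrant was 0.07 in control-vector cells (SE 0.17, edgeR adjusted p = 0.822) and -0.28 in knockdown cells (SE 0.17, edgeR adjusted p = 0.203). The knockdown value turned to 0.07 after correction (SE 0.10, edgeR adjusted p = 0.610). Without the 2 steep treated libraries and the first library of each untreated group it was -0.23 and passed (edgeR adjusted p = 0.00841), as did the contrast between treated lines (-0.24, edgeR adjusted p = 0.0206).

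**Figure D3:**
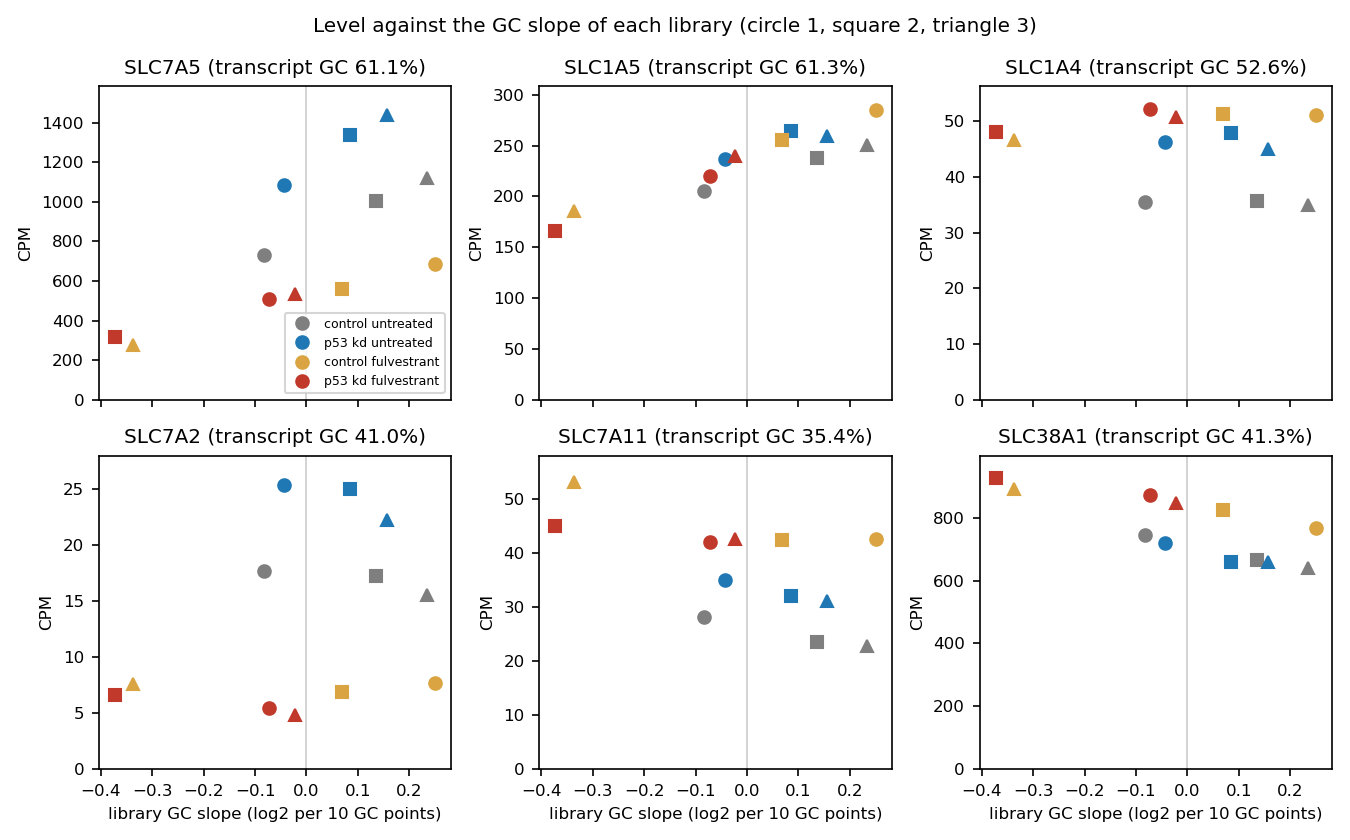
Level in CPM (vertical axis, from 0) of 6 transporters against the GC slope of each of the 12 libraries (horizontal axis, log2 CPM per 10 GC points). The 2 treated libraries near -0.34 and -0.37 hold the lowest SLC7A5 and SLC1A5 levels of their groups, whereas SLC7A2 separates by treatment among the other 10 libraries as well.

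SLC38A1 and SLC38A2, the sodium-coupled glutamine carriers, rose with fulvestrant in both lines. SLC38A2 stood at 755, 687 and 667 CPM in control-vector cells untreated and at 818, 788 and 767 CPM in untreated knockdown cells. With fulvestrant it stood at 861, 899.8 and 944 CPM in control-vector cells and at 976, 1036 and 984 CPM in knockdown cells. The 4 groups were separate in that order, with no overlap. Its log2 fold change with fulvestrant was 0.36 in control-vector cells (SE 0.06, edgeR adjusted p = 0.00112) and 0.34 in knockdown cells (SE 0.06, edgeR adjusted p = 0.000952). Between the lines it was 0.17 untreated (SE 0.06, edgeR adjusted p = 0.280) and 0.15 treated (SE 0.06, edgeR adjusted p = 0.172). After GC correction the untreated contrast was 0.16 and passed (edgeR adjusted p = 0.00326), and the treated one was 0.08 and did not (edgeR adjusted p = 0.0595). The treated contrast passed without library 3 of treated control-vector cells (0.21, edgeR adjusted p = 0.0423). Without the 2 steep treated libraries and the first library of each untreated group both passed. They were 0.20 untreated and 0.15 treated (edgeR adjusted p = 0.0336 and 0.0328).

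SLC38A1 responded to treatment, and its lines overlapped. Its levels were 745, 666 and 642 CPM in untreated control-vector cells and 721, 658 and 659 CPM in untreated knockdown cells. Treated levels were 769, 825 and 891 CPM in control-vector cells and 871, 927 and 846 CPM in knockdown cells. Every treated library of both lines lay above every untreated one. The rise was 0.27 on the log2 scale in control-vector cells (SE 0.07, edgeR adjusted p = 0.0181) and 0.38 in knockdown cells (SE 0.07, edgeR adjusted p = 0.00221). The first of these calls was lost without library 2 or library 3 of untreated control-vector cells and without library 2 or library 3 of treated ones (edgeR adjusted p from 0.0668 to 0.0850). After GC correction the rises were 0.25 and 0.29 (edgeR adjusted p = 2.54e-06 and 3.48e-07).

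The difference between the lines' responses to fulvestrant was tested directly, as the response in knockdown cells minus that in control-vector cells. Among the 9 transporters 0 passed this test by edgeR, against 0.0255% of all genes, and 4 (SLC7A2, SLC1A4, SLC7A11 and SLC3A2) had an unadjusted p under 0.05, as had 7.45% of all genes. DESeq2 called SLC7A2 alone of the 9 (adjusted p = 0.00611), where it called 0.427% of the genes to which it gave an adjusted p. The untreated contrast between the lines, which was positive for 8 of the 9, is subtracted in this difference. Signs here are therefore not independent of that contrast. The median difference of the 9 was -0.35, beside -0.0066 over all genes. The difference was negative for 8 of the 9, the exception being SLC38A1 at 0.10 (SE 0.11, edgeR adjusted p = 0.918). It was -0.92 for SLC7A2 (SE 0.16, edgeR adjusted p = 0.109), -0.49 for SLC7A11 (SE 0.15, edgeR adjusted p = 0.375) and -0.37 for SLC1A4 (SE 0.08, edgeR adjusted p = 0.190). After GC correction these 3 passed, at -0.98, -0.54 and -0.37 (edgeR adjusted p = 0.00130, 0.00173 and 0.00149), where 2.70% of all genes had a called negative difference. In the corrected values SLC7A2 had the larger fall in knockdown cells and SLC7A11 and SLC1A4 the larger rise in control-vector cells. With GC correction and without the 2 steep treated libraries, SLC7A5 (-0.40, edgeR adjusted p = 0.00267) and SLC3A2 (-0.26, edgeR adjusted p = 0.0179) passed as well. That fit called 574 genes over the whole table, 384 of them with a negative difference. The libraries left out in it were chosen after seeing the data. The direction of SLC38A2's difference, -0.02, was within its error (SE 0.08).

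Per kilobase of transcript, levels can be set against each other. In untreated control-vector cells SLC7A5 was highest, at 210 ± 44.2 CPM per kilobase, followed by SLC38A2 at 144 ± 9.38 and SLC3A2 at 115 ± 4.84. SLC38A1, at 84.9 ± 6.72, and SLC1A5, at 80.2 ± 8.11, did not differ beyond their spread. SLC1A4 stood at 7.76 ± 0.0873 and SLC7A11 at 2.57 ± 0.309, a level whose spread met that of SLC7A2. With fulvestrant SLC38A2 led in both lines, at 184 ± 8.55 in control-vector and 204 ± 6.67 in knockdown cells. SLC7A5 then stood at 112 ± 46.0 and 100.0 ± 26.5, no longer apart from SLC38A1 at 103 ± 7.60 and 109 ± 5.16. SLC7A11 and SLC7A2, close untreated, stood at 4.78 ± 0.639 and 0.967 ± 0.0599 in treated control-vector cells.

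Among the 10179 genes whose mean log2 CPM reached 3, those whose log2 CPM followed each transporter most closely over the 12 libraries were taken by Pearson's r, as a description. The libraries share 4 groups and a GC trend, so high values are common. Closest to SLC7A11 were PSAT1 (r = 0.989), an enzyme of serine synthesis, and ASNS (r = 0.985), the asparagine synthetase gene. PSAT1 rose with fulvestrant by 0.53 on the log2 scale in control-vector cells and by 0.26 in knockdown cells (edgeR adjusted p = 0.000211 and 0.00817). Nearest to SLC7A2 was RBBP8 (r = 0.990), a DNA end resection gene, and closest to SLC7A5 was CDC25B (r = 0.993), a cell cycle phosphatase gene. Nearest to SLC1A5 were CITED4 (r = 0.985) and SHMT2 (r = 0.981), a mitochondrial serine hydroxymethyltransferase gene. For SLC38A1 it was ATL3 (r = 0.995), for SLC38A2 CTAGE5 (r = 0.991), for SLC7A1 IL4R (r = 0.982) and for SLC3A2 ADAMTS15 (r = 0.990). SLC1A4 had the weakest closest match, PPP1R11 (r = 0.926). Ranked 2 and 3 were EGLN2 and FAM102A for SLC7A5, IRX3 and ASB13 for SLC3A2, and ASS1 and RNF41 for SLC1A4. For SLC7A1 they were TECR and NSUN5, and for SLC7A2 BRI3BP and ARHGAP11A. For SLC38A1 they were SUCO and BIRC2, and for SLC38A2 RP11-220I1.1 and USO1. Ranked 3 were OGFRL1 for SLC7A11 and TNFAIP2 for SLC1A5. Within the 9, SLC7A5 and SLC3A2 had r = 0.954, or 0.911 after GC correction, and SLC7A11 and SLC38A2 had r = 0.931, or 0.910. SLC7A5 and SLC1A5 had r = 0.722 before and -0.400 after correction.

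The neighbouring pathways were described with 7 gene lists, by counts and medians. Their counts with fulvestrant stand beside shares over all tested genes of 13.4% risen and 14.3% fallen in control-vector cells and 21.3% and 19.6% in knockdown cells. Of 42 other amino acid transporters listed, 22 passed the filter on low counts. In control-vector cells 6 of these fell with fulvestrant and 0 rose, and in knockdown cells 6 fell and 2 rose. The fallen share was 27.3% in each line, and the risen share was 0% and 9.09%. After GC correction the fallen share stayed at 27.3% in each line, where 22.0% and 26.9% of all genes fell. The risen share was then 9.09% and 18.2%, where 21.2% and 27.4% of all genes rose. SLC6A6, the taurine carrier, fell from 38.8 ± 2.31 to 19.7 ± 0.939 CPM in control-vector cells and from 33.9 ± 2.41 to 15.6 ± 0.428 CPM in knockdown cells (edgeR adjusted p = 7.32e-06 and 1.13e-06). SLC16A10, a carrier of aromatic amino acids, fell by 1.10 and 1.34 on the log2 scale (edgeR adjusted p = 0.00268 and 0.000542), from a low level of 4.32 ± 0.625 CPM in untreated control-vector cells. SLC38A7, a lysosomal glutamine carrier, rose in knockdown cells, from 17.7 ± 1.01 to 23.3 ± 2.15 CPM (edgeR adjusted p = 0.00857). The median log2 fold change of the list was 0.02 in control-vector and -0.17 in knockdown cells, the latter 0.02 after GC correction.

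Of the 7 lists, the ATF4 programme outside the transporters had the largest share risen with fulvestrant in control-vector cells. All 30 were tested: with fulvestrant 17 rose and 1 fell in control-vector cells (median 0.35), and 11 rose and 2 fell in knockdown cells (median 0.11). The risen shares were 56.7% and 36.7%, and the fallen shares 3.33% and 6.67%. In knockdown cells a larger share, 53.8%, rose among the mitochondrially encoded transcripts described below. After GC correction 21 rose and 1 fell, and 16 rose and 4 fell, with medians of 0.47 and 0.33, where 21.2% of all genes rose and 22.0% fell in control-vector cells and 27.4% and 26.9% in knockdown cells. DDIT3, which encodes the stress factor CHOP, rose from 10.3 ± 0.868 to 21.8 ± 2.84 CPM in control-vector cells and from 12.4 ± 1.28 to 27.1 ± 2.31 CPM in knockdown cells (edgeR adjusted p = 8.83e-05 and 2.90e-05). ASNS rose from 113 ± 7.80 to 182 ± 16.3 CPM and from 136 ± 6.02 to 185 ± 10.1 CPM (edgeR adjusted p = 0.000105 and 0.000812). ALDH18A1, an enzyme of proline synthesis, fell in both lines, by 0.25 and 0.23 on the log2 scale (edgeR adjusted p = 0.0127 and 0.0123). Between the lines 0 of the 30 were called by edgeR before GC correction, untreated or treated. After it 3 rose untreated, 1 rose and 6 fell with fulvestrant, and 5 had a called negative difference of responses, where the shares over all genes were those given for the transporters. This list overlaps those of stress genes already known from these data to move with fulvestrant, so its direction is not independent evidence.

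**Figure D4:**
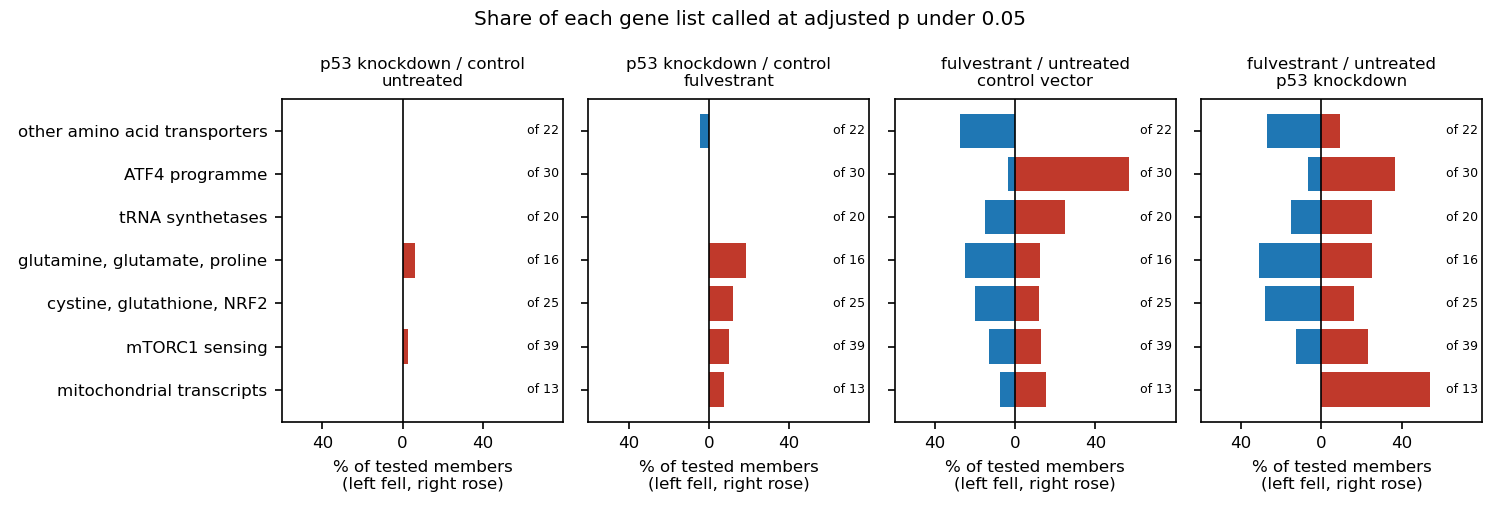
Percent of tested members of each gene list called by edgeR at an adjusted p under 0.05 (horizontal axis, fallen to the left, risen to the right) in the 4 pairwise comparisons, with the number tested at the right of each row. With fulvestrant in control-vector cells 17 of 30 ATF4 programme genes rose, while 6 of 22 other transporters fell in each line.

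Of the 20 cytosolic aminoacyl-tRNA synthetases, which charge tRNAs with amino acids, 5 rose (25%) and 3 fell (15%) with fulvestrant in each line. The risen share was above the 13.4% over all genes in control-vector cells and nearer the 21.3% in knockdown cells. The fallen share stood beside 14.3% and 19.6% over all genes. After GC correction 35% rose and 25% fell in control-vector cells, where 21.2% of all genes rose and 22.0% fell. In knockdown cells 30% rose and 35% fell after it, where 27.4% of all genes rose and 26.9% fell. WARS, for tryptophan, rose from 172 ± 8.72 to 279 ± 6.30 CPM in control-vector cells and from 200.3 ± 11.1 to 315 ± 5.73 CPM in knockdown cells (edgeR adjusted p = 1.04e-05 and 5.84e-06). FARSB, a subunit of the phenylalanine enzyme, fell by 0.42 and 0.65 on the log2 scale (edgeR adjusted p = 0.00508 and 0.000195).

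Among 16 tested enzymes of glutamine, glutamate and proline, fulvestrant came with 2 risen and 4 fallen in control-vector cells, and 4 risen and 5 fallen in knockdown cells. These are 12.5% and 25% of the list in control-vector cells and 25% and 31.2% in knockdown cells. After GC correction the fallen shares were 50% and 43.8%, where 22.0% and 26.9% of all genes fell. The risen share was then 25% in each line, where 21.2% and 27.4% of all genes rose. PPAT and CAD, which spend glutamine on purines and pyrimidines, fell by 0.51 and 0.46 in control-vector cells and by 0.74 and 0.80 in knockdown cells on the log2 scale (edgeR adjusted p from 9.98e-06 to 0.0329). GLUL, the glutamine synthetase gene, differed between the lines. It stood at 132 ± 8.36 CPM in control-vector and 189 ± 6.81 CPM in knockdown cells untreated, and at 145 ± 9.10 and 231 ± 5.20 CPM with fulvestrant (edgeR adjusted p = 0.00164 and 0.000195).

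For cystine use, glutathione and NRF2 targets, 3 of 25 rose and 5 fell in treated control-vector cells, and 4 rose and 7 fell in treated knockdown cells. Both risen shares, 12% and 16%, were below those over all genes, and the fallen shares were 20% and 28%. After GC correction the fallen shares were 36% and 40%, where 22.0% and 26.9% of all genes fell. The risen shares were then 24% and 20%, where 21.2% and 27.4% of all genes rose. TXNIP, an inhibitor of thioredoxin, rose from 30.7 ± 2.25 to 130.4 ± 12.7 CPM and from 32.4 ± 2.56 to 204 ± 16.5 CPM (edgeR adjusted p = 3.89e-07 and 6.12e-08). CTH, which makes cysteine from cystathionine, rose by 0.89 and 0.53 on the log2 scale, beside the rises of SLC7A11 (edgeR adjusted p = 0.000900 and 0.0103). ABCC1, an exporter of glutathione conjugates, fell by 0.44 and 0.61 (edgeR adjusted p = 0.00747 and 0.000674).

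Of 39 genes of lysosomal amino acid sensing and mTORC1, 5 rose and 5 fell in control-vector cells, and 9 rose and 5 fell in knockdown cells. At 12.8% and 12.8% in control-vector cells and 23.1% and 12.8% in knockdown cells, these counts were near or below the shares over all genes. After GC correction 23.1% rose and 12.8% fell in control-vector cells, where 21.2% of all genes rose and 22.0% fell. In knockdown cells 30.8% rose and 23.1% fell after it, where 27.4% of all genes rose and 26.9% fell. DEPTOR, an inhibitor of mTOR, fell from 49.7 ± 2.33 to 1.96 ± 0.0931 CPM and from 102 ± 3.27 to 3.48 ± 0.0807 CPM (edgeR adjusted p = 3.23e-11 and 1.43e-11). SESN3, of the sestrin family, rose from 3.44 ± 0.697 to 7.64 ± 0.693 CPM and from 5.22 ± 0.546 to 17.7 ± 0.862 CPM (edgeR adjusted p = 0.000218 and 4.32e-06). Mitochondrially encoded transcripts, which track library quality, moved as well. Of 13, control-vector cells had 2 risen (15.4%) and 1 fallen (7.69%) with fulvestrant. Knockdown cells had 7 risen (53.8%) and 0 fallen, the largest risen share of the 7 lists in that line, beside 21.3% over all genes. The medians were 0.25 and 0.35. After GC correction 46.2% and 53.8% rose, where 21.2% and 27.4% of all genes rose, and 7.69% fell in each line. Between the lines the median of these transcripts was 0.23 untreated, with 0 called by edgeR, and 0.31 with fulvestrant, with 1 risen. Their part in the transporter results was not tested.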

How the data were processed

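Transcript abundance was measured in 12 stranded mRNA libraries of PEO1 cells. The authors deposited RSEM expected counts for each gene, which are whole numbers and not normalized, per the file headers and values. RSEM 1.3.3, Bowtie2, cutadapt and MultiQC, with GRCh37 (hg19), are named in the submitters' processing notes. For settings and annotation release, nothing is given in the sources used here. RSEM shares ambiguous reads among transcripts. A further 6 columns matched no sample here and were not used.

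Counts were fitted in edgeR 4.0.16 (R 4.3.3) with TMM scaling (factors 0.984 to 1.06), filterByExpr and 1 mean per group over all 12 libraries, by the robust quasi-likelihood test, without covariates. Adjusted p-values are Benjamini-Hochberg over the 15715 genes tested, with a threshold of 0.05. SE is approximated as the log2 fold change over the root of the F statistic. The GC correction used offsets from a lowess trend (span 0.3) of log2 CPM on transcript GC content (GENCODE v29, known for 97.8% of tested genes). Lengths and GC contents are those of the longest protein-coding transcript there, of another build than the counts. Fits were also run on counts simulated for the untreated contrast between the lines. Those counts carried no GC trend by library, so they could not test the GC correction.

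Genes named are the 9 transporters, up to 2 members per direction of each list with the largest change past the threshold, and for likeness the 3 closest genes per transporter. The level of the targeted gene is not reported here. ASNS stands also among the glutamine enzymes, and PSAT1 is named as the closest gene to SLC7A11. Members and lists were chosen with earlier results of these data known. Alternatives tried were RLE scaling, library totals, DESeq2 1.42.0, no filter, fits of 6 libraries, replicate blocks, GC correction and leaving out libraries. Replicate numbers were not used to pair libraries in the main fit. Correlations of same-numbered libraries' deviations from their group means ran from -0.631 to 0.456. Between the untreated lines they were 0.456, 0.032 and 0.376, all positive, so whether those libraries are paired is not settled.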

Additional observations from a re-analysis of the deposited data

How the results depend on the processing

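Across 819 alternative values for the transporters, 720 kept direction and side of the threshold, 48 gained a call, 19 lost one and 32 changed sign, each without a call before or after. Counts of called genes over the whole table moved more. For knockdown against control vector untreated, 249 genes became 145 with the replicate block over all 12 libraries, 82 with the replicate block within treatment, 1031 with GC correction (589 higher, 442 lower, against 160 and 89), 742 with block and GC correction, 425 without 4 libraries (replicate 1 of both untreated groups and the 2 treated libraries with steep GC slope) and 126 to 189 leaving out 1 library. With fulvestrant, 1103 became 229 in the 6-library fit (111 higher, 118 lower, against 672 and 431), 620 and 525 with those replicate blocks, 3240 with GC correction (1535 higher, 1705 lower), 2714 with block and GC correction, 3003 without the 4 libraries (1307 higher, 1696 lower), 2823 with GC correction and without the 2 steep treated libraries, and 456 to 2270 leaving out 1 library. The highest of these was without library 3 of treated control-vector cells. The control-vector response, 4363 genes, became 6798 with GC correction, 6791 with that and without the 2 libraries, and 2976 in the 6-library fit. The 4 genes whose response differed became 0 with library totals, without the filter and with either replicate block, 45 with DESeq2, 620 with GC correction, 396 with block and GC correction, 20 without the 2 libraries, 62 without the 4, 574 with GC correction and without the 2, and 0 to 7 leaving out 1 library. The cause was not tested.

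Sign changes among uncalled log2 values were as follows. Between treated lines, SLC7A5 became 0.14 with GC correction, 0.14 with the replicate block as well, and 0.10 without the 2 libraries as well. SLC1A5 became 0.028, 0.028 and 0.12 under the same settings. SLC3A2 became -0.031 in the 6-library fit, -0.057 without the 2 libraries and -0.065 without the 4, and SLC1A4 -0.00043 without the filter and -0.035 in the 6-library fit. In the knockdown response SLC1A5 became 0.068, 0.067 and 0.023 under the 3 GC settings. In the control-vector response SLC7A1 became 0.0015 without the 2 libraries and 0.025 with GC correction as well. Between untreated lines SLC38A1 became 0.010 without the 4 libraries. Leaving out 1 library, ranges that crossed 0 were -0.0038 to 0.024 for SLC1A4, -0.062 to 0.12 for SLC3A2, -0.17 to 0.053 for SLC7A11 and -0.43 to 0.10 for SLC7A5 between treated lines, -0.059 to 0.19 for SLC1A5 and -0.13 to 0.00080 for SLC7A1 in the control-vector response, -0.056 to 0.055 for SLC38A1 between untreated lines, and -0.078 to 0.044 for SLC38A2 in the difference of responses.

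With the replicate block, SLC7A2 between untreated lines lost its call (edgeR adjusted p = 0.0764, and 0.179 within treatment), as did SLC1A4 within treatment (edgeR adjusted p = 0.0645). No other transporter call changed with either block before GC correction. The alternatives without 2 or 4 libraries were chosen after seeing the data.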
